A study of Mus musculus with 16 samples.

Results

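Of 136630 nuclear peaks of accessible chromatin measured in pancreatic ductal adenocarcinoma (PDAC) cells, 8417 (6.16%) were open mainly in liver metastases. These liver-open peaks were chosen on their measured values. Their mean normalized read count over the 4 liver samples was at least 40 and at least 3 times both the mean of the 6 lung samples and the mean of the 6 pancreas samples. Differences between organs are therefore described at these peaks and not tested. The response to Smad4 restoration, the position of the peaks, their sequence and the organ difference in samples left out of the choice were not part of the rule. The same rule turned to the other organs chose 6398 peaks for the pancreas and 180 for the lungs.

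Accessible chromatin is DNA that is free enough of nucleosomes for transcription factors and for the transposase of ATAC-seq to reach it. It includes the start sites of active genes and the enhancers that regulate them from a distance, and enhancers differ more between cell states than start sites do. PDAC cells keep an epithelial identity to varying degrees, held by factors such as GRHL, OVOL, KLF and HNF proteins and opposed by factors of the epithelial-mesenchymal transition (EMT). Smad4 is the shared partner of the receptor-activated Smads and carries TGF-beta and BMP signals to chromatin.

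The KC-shSmad4 cell lines came from tumors of mice with Ptf1a-Cre (active in the pancreatic lineage), a Cre-activated Rosa26 allele of rtTA3 and the red fluorescent protein mKate2, and, at Col1a1, an shRNA to Smad4 under doxycycline control, so all 6 groups shared these alleles. The cells also carried firefly luciferase and were transplanted into female Foxn1nu nude mice of 6 to 8 weeks, hosts that lack mature T cells. They were injected into the pancreas (100000 cells), into the spleen, which was then removed, to reach the liver (400000 cells), or into the tail vein to reach the lungs (250000 cells). Under doxycycline chow Smad4 was off (Panc_OFF and Lung_OFF, n = 3 each, and Liv_OFF, n = 2), and it was restored by withdrawal of the drug 14 days before collection (Panc_ON and Lung_ON, n = 3 each, and Liv_ON, n = 2). The drug was withdrawn at week 4 (pancreas), 5 (liver) or 6 (lungs), and the cell line that each mouse received is not given in the sources used here, so organ, route, growth time and line cannot be told apart. From each tumor 60000 mKate2-positive cells were sorted.

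Between 22.5 M and 37.5 M reads per sample fell in nuclear peaks. Markers of tumor epithelium were open in every sample. The start-site peak of Krt8, a keratin of simple epithelia, read 10500 to 14900 in the liver, 5400 to 8540 in the lungs and 3180 to 5480 in the pancreas. A list of 18 hepatocyte genes had a nearest peak for 10 of them, and these 51 peaks summed to 4.5 to 4.9 in the liver samples, 4.5 to 5.0 in the pancreas and 4.3 to 5.7 in the lungs, in units of 1000 normalized counts. None of them was a liver-open peak. No peak was assigned to Afp, Apoa2, Apoc3, Fga, Fgb, Cyp2e1, Cyp3a11 or Hpx. Start-site peaks of the list went both ways, since Ttr read 164 to 242 in the liver samples and at most 96.7 elsewhere and Apoh 19.5 to 23.4 and at most 14.0, while Hp read 7.11 to 22.3 in the liver and 19.6 to 57.5 elsewhere. The start site of Cd68, a macrophage gene, read 454 to 776 in the liver and 178 to 401 elsewhere. That of Csf1r, a macrophage receptor and the only other start-site peak of this list, read 6.17 to 22.1 in the liver and 8.4 to 54.4 elsewhere. The part of such cells in the results was not tested. None of the peaks near 8 Kupffer cell and macrophage genes (15 peaks), 8 other leukocyte genes (18 peaks) or 5 erythroid genes (5 peaks) was liver-open either, and their sums in the liver, in the same units, were 1.4 to 1.8, 1.3 to 1.4 and 1.8 to 2.1. In the pancreas and lungs these sums were 1.2 to 1.5 for macrophages in both organs, 1.0 to 1.4 and 1.2 to 1.7 for other leukocytes, and 1.4 to 1.9 and 1.6 to 1.8 for erythroid cells. Of peaks near 8 genes each, 3 of 55 of liver endothelium (Stab2, Pecam1 and Cdh5) and 2 of 49 of stellate cells and fibroblasts (Des and Col1a1) were liver-open. The stellate and fibroblast list summed to 4.4 to 5.8 in the liver, 5.2 to 7.3 in the lungs and 8.8 to 13.4 in the pancreas, and the start site of Col1a1 read 728 to 839 in the liver and 1260 to 1730 in the pancreas. The list of liver endothelium summed to 7.3 to 8.0 in the liver, 7.1 to 9.0 in the lungs and 6.8 to 7.4 in the pancreas.

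The sequences of a few liver-open peaks are shown as examples, picked for their level, ratio, p or words and not as typical of the set. Each is the central 200 bases of the peak on the plus strand of GRCm38 (mm10), with matches to the 14 motif words that were searched on both strands in capitals. The first pair have the highest liver level and lie at start sites. Sfn (chr4:133600773-133600972) encodes the epithelial 14-3-3 sigma protein. The Ttll10 peak (chr4:156056708-156056907) also spans the starts of Mir200b, Mir200a and Mir429, microRNAs that repress EMT factors. Neither window holds a searched word.
Sfn: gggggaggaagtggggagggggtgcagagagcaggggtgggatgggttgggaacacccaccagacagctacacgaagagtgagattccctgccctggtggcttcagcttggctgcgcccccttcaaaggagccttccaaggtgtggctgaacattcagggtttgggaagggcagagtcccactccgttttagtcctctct
Ttll10 and Mir200b: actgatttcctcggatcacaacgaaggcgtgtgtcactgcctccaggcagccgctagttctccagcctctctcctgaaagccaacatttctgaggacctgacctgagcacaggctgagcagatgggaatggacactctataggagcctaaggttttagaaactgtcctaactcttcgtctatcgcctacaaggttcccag
The peaks of highest ratio of the liver to the other organs lay in an intron of Ephb2, an ephrin receptor (chr4:136779669-136779868), and 37 kb from the start of Ptpn3, a tyrosine phosphatase (chr4:57339064-57339263). The second holds the ONECUT word.
Ephb2: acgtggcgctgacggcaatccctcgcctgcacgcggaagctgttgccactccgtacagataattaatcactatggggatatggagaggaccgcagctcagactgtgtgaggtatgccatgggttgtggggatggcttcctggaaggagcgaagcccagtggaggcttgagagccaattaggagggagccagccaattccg
Ptpn3: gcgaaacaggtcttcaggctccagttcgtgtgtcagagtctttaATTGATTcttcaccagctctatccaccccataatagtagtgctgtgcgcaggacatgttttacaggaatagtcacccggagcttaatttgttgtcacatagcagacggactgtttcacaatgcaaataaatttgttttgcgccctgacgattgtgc
The next 3 had some of the smallest p for Smad4 restoration in the liver among liver-open peaks, 1 with a positive change that did not pass the test (near Mndal, chr1:173846574-173846773) and 2 that fell (in Bmpr1b, chr3:142114447-142114646, and in an intron nearest Morc3, chr16:93795057-93795256). Their windows hold none of the 14 words, the SMAD palindrome included.
Mndal: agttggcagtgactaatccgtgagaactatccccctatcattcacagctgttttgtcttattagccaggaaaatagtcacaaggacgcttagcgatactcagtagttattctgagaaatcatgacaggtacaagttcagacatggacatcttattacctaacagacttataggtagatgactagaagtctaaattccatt
Bmpr1b: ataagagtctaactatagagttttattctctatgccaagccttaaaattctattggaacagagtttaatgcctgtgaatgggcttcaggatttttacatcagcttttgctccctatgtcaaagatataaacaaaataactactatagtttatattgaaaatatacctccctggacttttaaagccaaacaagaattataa
Morc3: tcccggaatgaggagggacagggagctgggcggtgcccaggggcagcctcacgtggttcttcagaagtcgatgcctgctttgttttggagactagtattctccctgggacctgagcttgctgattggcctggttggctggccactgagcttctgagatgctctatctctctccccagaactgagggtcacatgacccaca
The last 4 were the liver-open peaks of highest liver level outside promoters that hold an HNF4, HNF1, GRHL or KLF word, words taken after their shares had been seen. They lay near Acbd3 (HNF4, chr1:180757802-180758001), near Dhrs3 (HNF1 with a KLF word before it, chr4:144961493-144961692), in Mbnl2 (GRHL next to an AP-1 word, chr14:120318444-120318643), and over 100 kb from any protein-coding start site (KLF, chr6:52480853-52481052).
Acbd3: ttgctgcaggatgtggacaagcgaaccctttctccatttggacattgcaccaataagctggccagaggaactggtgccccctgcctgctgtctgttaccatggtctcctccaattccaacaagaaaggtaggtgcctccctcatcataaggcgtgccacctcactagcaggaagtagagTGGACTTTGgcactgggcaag
Dhrs3: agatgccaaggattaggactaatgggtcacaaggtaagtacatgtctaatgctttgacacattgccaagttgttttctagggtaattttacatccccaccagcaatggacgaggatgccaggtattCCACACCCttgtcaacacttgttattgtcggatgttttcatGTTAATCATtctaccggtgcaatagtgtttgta
Mbnl2: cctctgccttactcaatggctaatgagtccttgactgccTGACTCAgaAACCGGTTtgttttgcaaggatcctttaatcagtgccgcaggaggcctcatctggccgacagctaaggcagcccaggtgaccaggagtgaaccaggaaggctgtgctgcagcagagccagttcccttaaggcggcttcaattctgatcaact
Chromosome 6 intergenic: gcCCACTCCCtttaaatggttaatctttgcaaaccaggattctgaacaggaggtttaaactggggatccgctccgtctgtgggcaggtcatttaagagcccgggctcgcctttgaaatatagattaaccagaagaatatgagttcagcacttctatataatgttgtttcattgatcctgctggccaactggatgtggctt

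The liver-open peaks ranged from faint to very strong. Their mean count in the liver had a median of 108, quartiles of 63.8 and 216 and a maximum of 5978, and 150 of them reached 1000. The median peak read 96.3 and 122.6 in the Liv_OFF samples and 90.8 and 120.9 in the Liv_ON samples. In the pancreas the medians per sample were 11.5 to 19.8, and in the lungs they were 16.6 to 20.2 in 5 samples and 30.4 in Lung_OFF replicate 2. The liver samples were far above all others, and Lung_OFF replicate 2 was the highest lung sample at 57.98% of the liver-open peaks. These peaks took 4.25% to 5.12% of all counts in the liver samples, against 0.68% to 1.16% in the pancreas and 0.95% to 1.76% in the lungs.

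**Figure D1:**
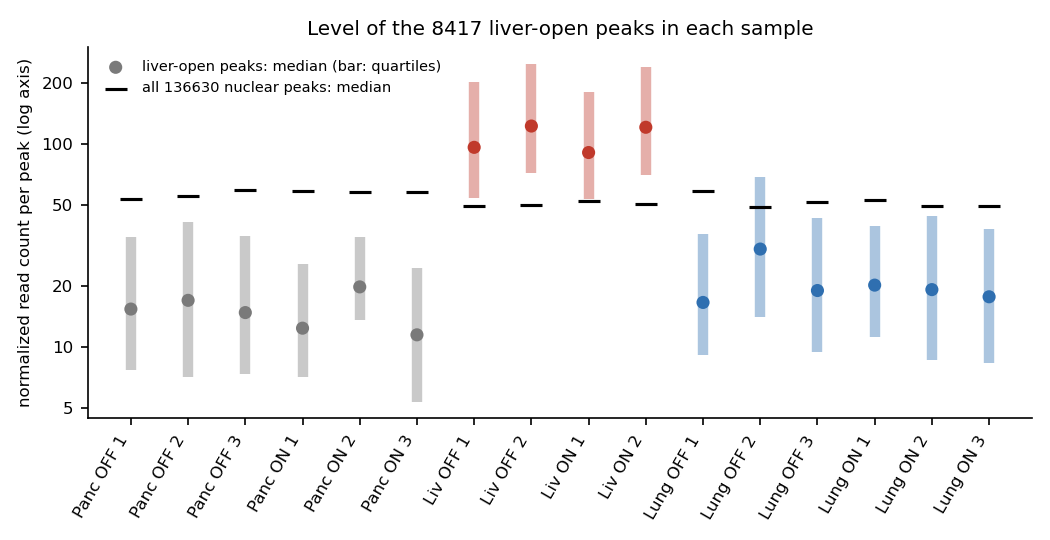
Normalized read count (log axis) of the 8417 liver-open peaks in each of the 16 samples, as the median (point) and quartiles (bar), with the median of all nuclear peaks as a dash. Liver medians lie between 90.8 and 122.6 and all other medians at or below 30.4, while the median of all peaks is between 48.9 and 59.3 in every sample.

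At 7924 liver-open peaks (94.14%) the lowest liver sample was above the highest of the 12 other samples, which held for 18.2% of all nuclear peaks. The lung mean exceeded the pancreas mean at 73.15% of the liver-open peaks and at 53.68% of all peaks. The 3 just inside the limit on level had liver means of 40.02, 40.03 and 40.04 and the 3 just outside 39.98, 39.96 and 39.95. At the limit on the ratio to the lungs, the peak near Stx16 was just inside (148.2 against 49.41) and the peak near Exoc6 just outside (52.08 against 17.36). At the limit on the ratio to the pancreas, the peak near Arf1 was just inside (44.77 against 14.91) and the intronic peak of Zfp407 just outside (47.32 against 15.77).

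The organ difference was tested in samples that took no part in the choice. Among 8587 peaks chosen by the rule on the OFF samples alone, 7784 (90.6%) were called higher in Liv_ON than in both Lung_ON and Panc_ON, where the background was 15.1% of all nuclear peaks. Peaks were called by limma where the change was 0.58 or more on the log2 scale with an adjusted p no higher than 0.1, adjusted over all nuclear peaks. The median log2 fold change of the chosen peaks was 2.09 against the lungs and 2.69 against the pancreas, and 11 and 5 of them were below 0. In the other direction, 8141 peaks were chosen on the ON samples and 7859 (96.5%) were called higher in Liv_OFF than in both Lung_OFF and Panc_OFF, against a background of 19.4%. Both choices shared 6139 peaks. Without Liv_ON replicate 2, which leaves 1 Liv_ON sample, the median change of the peaks chosen on OFF was 1.89 against the lungs and 2.48 against the pancreas.

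The most open liver-open peaks lay at start sites of epithelial genes. At the Sfn start site the liver samples read 5274 and 7041 (OFF) and 5025 and 6571 (ON), while the lungs ranged from 1378 to 2167 and the pancreas from 1232 to 2161. The peak was already open in all organs, and the liver samples did not overlap the others. At the start of Cldn3, a tight junction claudin, the values were 3540 and 3816 (Liv_OFF) and 2520 and 3948 (Liv_ON) against 318.2 to 1411 in the lungs and 411 to 816.4 in the pancreas. A second peak 18 kb away had a liver mean of 3026 ± 732 (SD, n = 4). At the start of Cldn4 the liver samples read 1386 and 2970 (OFF) and 2420 and 3556 (ON), against at most 627.8 in the lungs and 561.1 in the pancreas. Further start-site peaks of this order belonged to Tmem125, Spint1 (an inhibitor of matriptase and other epithelial serine proteases), Liph (a phospholipase) and Ocln (occludin of tight junctions), with liver means of 3297, 2939, 2801 and 2498. Their ratios to the higher of the other organs, with 1 added to both means, were 3.26, 4.56, 3.47 and 3.12.

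Over the Ttll10 start site and the Mir200b cluster the liver read 4399 and 5064 (OFF) and 3224 and 4444 (ON). The lungs read 735.5, 1824 and 1060 (OFF) and 858, 1200 and 712.9 (ON), and the pancreas 770.3, 1206 and 884.4 (OFF) and 545.8, 503.8 and 472.1 (ON). Again the liver stood apart, and within the pancreas the OFF and ON samples did not overlap. A peak near Slc25a25, a mitochondrial carrier, was the only one among the 8 most open that lay near neither a claudin gene nor a start site (liver mean 3551). Start sites of microRNAs lay in 7 of the liver-open peaks and in 294 of all peaks.

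The peaks of highest ratio were of another kind. The intronic peak of Ephb2 read 214.7 and 504.4 (Liv_OFF) and 432.1 and 564.7 (Liv_ON), but at most 14.6 in the lungs and 22.28 in the pancreas. The peak near Ptpn3 read 85.16 and 298.2 (OFF) and 234.1 and 237.6 (ON), with at most 6.738 and 9.903 elsewhere. Here the other organs were close to no signal, and Liv_OFF replicate 1 was the lowest liver sample. Peaks near Diexf, Jun, Limk2, Idh3a and Rap2c were also among the 8 of highest ratio, with ratios between 32.99 and 39.22.

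**Figure D2:**
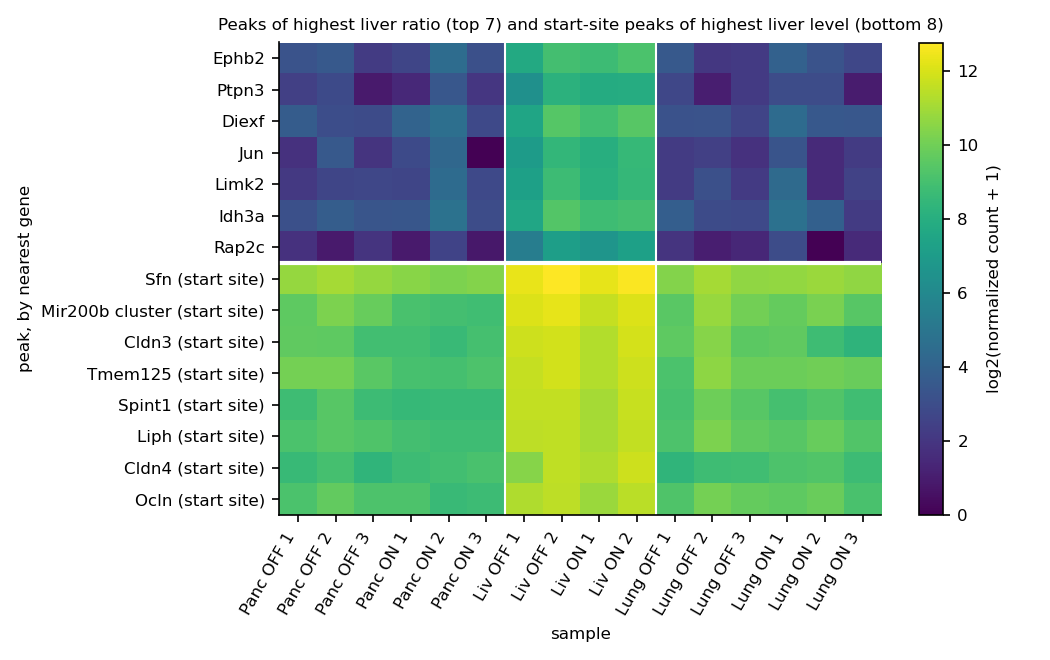
Level in each sample, as log2(normalized count + 1) by color, of 7 of the 8 peaks of highest liver ratio (above the white line) and the 8 start-site peaks of highest liver level (below). In the upper rows the lung and pancreas samples are far below the liver samples and Liv_OFF replicate 1 is the faintest liver sample. In the lower rows all organs are open and the liver is brightest.

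The lowest liver sample changed with the ratio. Over all liver-open peaks Liv_ON replicate 1 was lowest at 47.31% and Liv_OFF replicate 1 at 41.87%. Of the 5455 liver-open peaks with a ratio below 5 Liv_ON replicate 1 was lowest at 61.87% and Liv_OFF replicate 1 at 24.29%. Liv_OFF replicate 1 was lowest at 64.34% of the 2078 between 5 and 10 and at 97.51% of the 884 at 10 or more. In the last class the median of Liv_OFF replicate 1 was 65.4, against 151.9 in Liv_OFF replicate 2 and 123.5 and 149.8 in the Liv_ON samples, and the median lung and pancreas means were 6.3 and 6.8. Among these peaks Panc_ON replicate 2, the sample with the fewest reads in peaks, was the highest pancreas sample at 81.33%. The genes with most peaks in this class were Tiam1 (15 peaks), Nectin1 (9), Mctp2 (6), Arhgap32, Defb1 and Grhl2 (5 each). What sets these replicates apart was not tested.

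Liver-open peaks lay mostly away from start sites. By protein-coding genes of the GENCODE annotation, 433 (5.14%) were within 1000 bp of a start site, 675 (8.02%) overlapped an exon, 3447 (40.95%) lay in introns and 3862 (45.88%) between genes. The shares among all nuclear peaks were 10.82%, 5.81%, 38.28% and 45.09%, and the pancreas-open peaks had 3.38% at start sites. A start-site peak was thus liver-open in 2.93% of cases and an exonic peak in 8.5%. The liver-open start-site peaks were stronger, with a median liver mean of 221.7 against 102.1 between genes. Liver-open peaks had a median width of 619 bp and a GC content of 46.67%, against 589 bp and 45.82% over all peaks. They made up 3.74% of the peaks of chromosome X, 4.56% of those of chromosome 6 and up to 7.59% of those of chromosome 9, and none of the 75 on chromosome Y.

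The median distance to the nearest other liver-open peak was 22.58 kb, and 47.68% had another within 20 kb. Within 100 kb a protein-coding start site was found for 7127 of them (84.67%, against 79.02% of all peaks), which gave 4181 genes, 2656 with a single liver-open peak and 182 with at least 5. The densest megabase, chr9:31000001-32000000, held 38 among 119 peaks, near St14 (matriptase), Tmem45b and Prdm10, and chr9:43000001-44000000 held 33 of 99, near Trim29, Pou2f3 and Arhgef12.

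Tiam1, an exchange factor for the GTPase Rac, had the most. Of the 31 peaks assigned to it 23 were liver-open, over 345 kb, 3 of them at start sites. Its strongest (chr16:89972846-89974756) read 313.5 and 907 (Liv_OFF) and 814.1 and 1152 (Liv_ON), between 15.21 and 85.35 in the lungs and between 11.11 and 86.61 in the pancreas. It did not pass for restoration in any single organ but was called higher on the average over organs (log2 fold change 1.15, adjusted p = 0.0538, limma). Nectin1, an adhesion molecule of adherens junctions, had 16 of 27, and Map7, a microtubule-binding protein of epithelia, 13 of 30. Arhgap32, a GTPase-activating protein, had 12 of 27, and its strongest peak at a start site read 867.6 and 1322 (OFF) and 928.3 and 987.1 (ON) against at most 231.5 in the lungs and 149.2 in the pancreas. Mgam, a brush-border maltase, had 12 of 22. Ephb2 (11 of 16), Shroom3 (11 of 49, a regulator of apical constriction), Arrdc4 (11 of 20), Tmem45b (10 of 24) and Casz1 (10 of 29) followed. Within 20 kb Tiam1 again led with 10, and Arrdc4 had none.

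Gene lists show where liver-open peaks were frequent, beside their share of 6.16% among all nuclear peaks. Of 251 peaks near 25 genes of epithelial junctions and identity 53 were liver-open (21.12%), in 14 genes, and 8 of the 53 lay at start sites. Epcam, an epithelial adhesion molecule, had 9 of 24, and its start-site peak read 2244 and 2534 (Liv_OFF) and 1539 and 2073 (Liv_ON) against 397.5 to 850.9 in the lungs and 357.2 to 697.7 in the pancreas. Grhl2 and Grhl3, grainyhead factors of epithelia, had 9 of 27 and 9 of 18. The start-site peak of Grhl2 read 391.2 and 962.7 (OFF) and 644.1 and 722.1 (ON) in the liver but at most 85.61 in the lungs and 47.04 in the pancreas. Ocln had 5 of 10, Grhl1 4 of 10, Cldn3 3 of 5, Cldn4 3 of 8, Esrp1 (an epithelial splicing regulator) 3 of 6 and Ovol1 3 of 3. The list of tumor epithelium, whose 8 genes are all in this one, had 18 of 67 (26.87%), and duct and cholangiocyte genes had 15 of 108 (13.89%), 9 of them of Epcam.

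Genes of EMT and of RUNX factors were at the other end. Of 138 peaks near 10 EMT and mesenchymal genes 1 was liver-open (0.72%), 94 kb from Snai2, and of 112 peaks of Runx1, Runx2, Runx3 and Cbfb none was. The summed level over the EMT list, in units of 1000 normalized counts, was 17.0 to 21.4 in the liver, 26.7 to 32.2 in the lungs and 31.9 to 42.5 in the pancreas. The sum over the epithelial list was 144.3 to 186.7 in the liver, 80.3 to 111.4 in the lungs and 59.7 to 82.8 in the pancreas. The samples of the liver did not overlap those of the other organs in either sum. The epithelial sum includes the 53 liver-open peaks, which were chosen for a high liver level. Its separation is therefore partly set by the choice, and no sum without them is given.

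Several transcription factor and metabolic lists lay above the share of all peaks. Of 325 peaks of nuclear receptors 37 were liver-open (11.38%), 9 of them of Rxra, the common partner of many of these receptors, 6 of Thrb, a thyroid hormone receptor, and 5 of Ppara, a fatty acid sensor. The start-site peak of Nr1i2, the xenobiotic sensor PXR, read 1005 and 819.2 (Liv_OFF) and 599.8 and 817.5 (Liv_ON) against 122.4 to 335.8 in the lungs and 119.1 to 298.9 in the pancreas. Of 242 peaks of endoderm and liver transcription factors 20 were liver-open (8.26%), with 5 of 21 of Hnf4g, 3 of 10 of Hnf4a and 3 of 14 of Foxa1. An exonic peak 5 kb from an Hnf4a start site read 670.2 and 840.1 (OFF) and 624.3 and 821.6 (ON) against 191.3 to 330.5 in the lungs and 66.85 to 164.8 in the pancreas. Of 97 peaks of intestinal and gastric genes 11 were liver-open (11.34%), and 6 of these belonged to Isx, an intestinal homeobox gene, whose start site read 557.9 to 1489 in the liver against 179.7 to 382.5 in the lungs and 52.79 to 127.5 in the pancreas.

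Genes of lipid, cholesterol and bile acid handling had 17 of 177 (9.6%), 4 of them of Abcg8, a sterol transporter. KLF factors had 16 of 211 (7.58%), with 5 each of Klf3 and Klf5, 2 of Klf10 and 1 of Klf4, 70 kb from its start. Complement, coagulation and acute phase genes had 3 of 64 (4.69%), of Orm1 and Plg. The TGF-beta and SMAD pathway had 33 of 513 (6.43%), near the share of all peaks, with 5 of 10 of Bmp7, 4 of 25 of Bmp2 and 4 of 28 of Tgfbr2. Of 87 peaks near Smad4 effectors named by the study 3 were liver-open (3.45%), near Cdkn1c, Has2 and Id1. By symbol, 18.95% of the peaks near keratin genes (29 of 153), 13.39% near Cyp genes (45 of 336), 10.56% near claudins (19 of 180), 9.58% near Slc transporters (221 of 2308), 9.38% near Abc transporters (32 of 341) and 5.0% near Ugt genes (4 of 80) were liver-open.

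**Figure D3:**
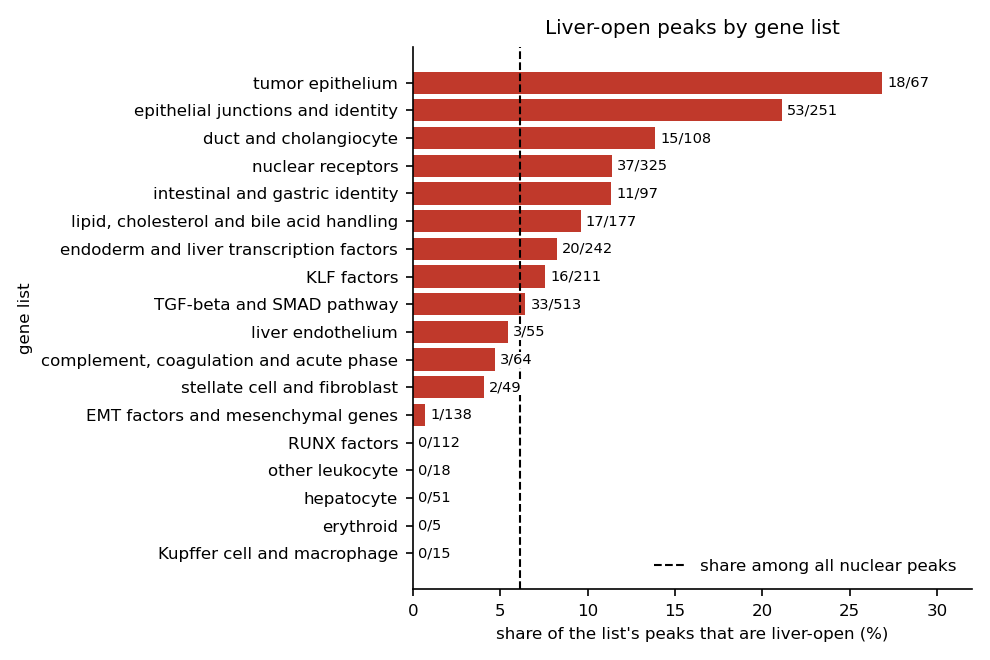
Share of the peaks near the genes of each list, the Smad4 effectors left out, that were liver-open, in percent, with the number of liver-open peaks over all peaks of the list beside each bar and the share among all nuclear peaks (6.16%) as a dashed line. Epithelial lists lie farthest to the right, and RUNX factors, hepatocyte, Kupffer cell, erythroid and other leukocyte genes are at 0.

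Sequence words of transcription factors differed in frequency between the liver-open peaks and all nuclear peaks, read in the central 200 bases of each peak. The AP-1 word TGANTCA was in 16.3% of liver-open peaks and in 28.1% of all peaks, and the RUNX word TGTGGTT in 4.88% and 7.91%. The ETS word CCGGAAGT was in 0.25% and 0.45%, and away from start sites in 0.25% of both. More frequent in liver-open peaks were the GRHL word AACCGGTT (0.29% of liver-open peaks, 24 in number, and 0.09% of all), the HNF4 word CAAAGTCCA (1.76% and 0.79%), the HNF1 word GTTAATNAT (1.63% and 1.02%), the CDX word TTTATNG (16.95% and 11.47%) and the KLF word GGGNGTGG (10.89% and 7.71%). The words of GATA factors (AGATAAG, 4.89% and 3.6%), TEAD (ACATTCCA, 2.52% and 1.94%), FOX (TGTTTAC, 5.38% and 4.42%), CEBP (TTGCNCAA, 3.15% and 2.63%) and ONECUT (ATTGATT, 3.81% and 3.42%) and the SMAD palindrome (GTCTAGAC, 0.33% and 0.23%) were also more frequent. The palindrome was in 28 liver-open peaks, and over whole peaks it was in 0.91% of both sets. Over whole peaks ONECUT (11.94% and 11.38%) and CEBP (9.9% and 9.46%) differed little. GATA (14.01% and 12.53%), TEAD (6.76% and 5.96%) and FOX (15.21% and 14.12%) stayed more frequent. Words can overlap in a peak, and a match is no evidence of binding. No test was made of these shares.

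In pancreas-open peaks the order was another. HNF4 was in 0.14%, HNF1 in 0.39%, KLF in 5.31%, RUNX in 10.43% and AP-1 in 25.68%. Among liver-open peaks HNF4 was in 2.11% of those with a ratio below 5 and in 0.9% of those at 10 or more, and GRHL in 0.15% and 0.9%. AP-1 was at 16.32% and 14.71% in these classes.

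**Figure D4:**
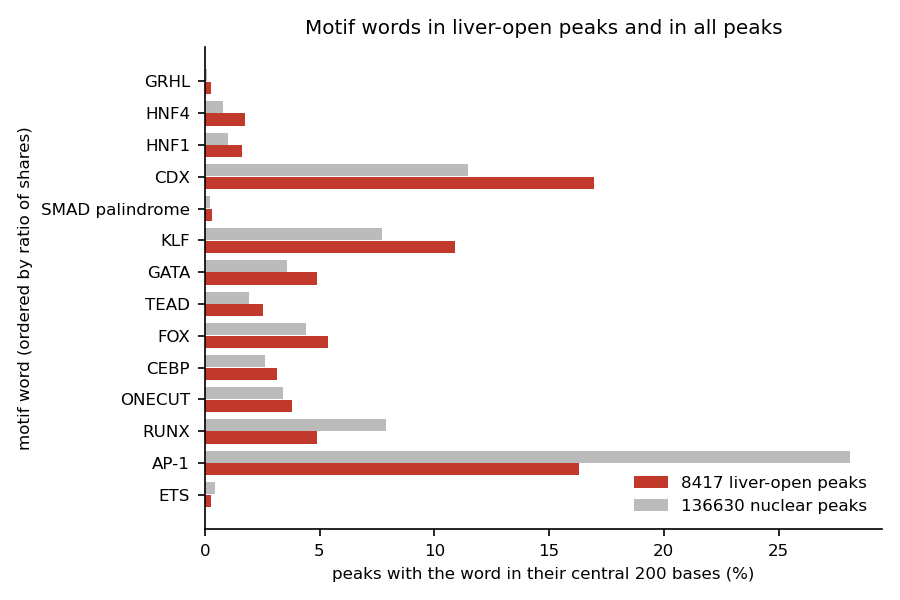
Share of peaks, in percent, with each motif word in the central 200 bases, for the 8417 liver-open peaks (red) and all 136630 nuclear peaks (grey), ordered by the ratio of the shares. AP-1 is at 16.3% against 28.1% and KLF at 10.89% against 7.71%.

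Smad4 restoration in the liver left nearly all liver-open peaks without a call. None was called higher, where 0.462% of all nuclear peaks were, and 6 (0.0713%) were called lower, where 0.0886% of all were. At an unadjusted p under 0.05 there were 352 liver-open peaks (4.18%, against 12.15% of all peaks). The median log2 fold change was -0.08 with quartiles of -0.44 and 0.31, and the median of all peaks was 0.02. Its sign depended on single samples, as it was 0.04 without Liv_OFF replicate 2, 0.13 without Liv_ON replicate 1, -0.26 without Liv_OFF replicate 1 and -0.3 without Liv_ON replicate 2. The median SE was 0.52 at liver-open peaks with n = 2 against 2, which limits the changes that could be called. None was higher by edgeR, with 2 lower, and DESeq2 called 3 higher and 39 lower. Over all 136630 nuclear peaks edgeR called 302 higher and 54 lower, and DESeq2 called 2613 higher and 572 lower.

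The intronic peak of Bmpr1b, a BMP receptor (chr3:142114010-142115085), read 207.3 and 135.1 (Liv_OFF) and 31.45 and 18.28 (Liv_ON), which is a log2 fold change of -2.75 ± 0.57 (SE, adjusted p = 0.0693, limma). In the lungs it read 17.49, 52.16 and 37.05 (OFF) and 8.984, 4.792 and 5.599 (ON), with no call. The peak nearest Morc3 read 286.3 and 256.4 (OFF) and 68.72 and 87.34 (ON), a change of -1.79 ± 0.39 (adjusted p = 0.0775, limma). An intronic peak nearest Sri, which encodes the calcium-binding protein sorcin, went from 129.6 and 52.94 to 10.48 and 11.17, and one of Nos1ap from 325.8 and 189.5 to 48.92 and 38.59 (adjusted p = 0.0888 and 0.0982, limma). A further peak that was called lay over 100 kb from a protein-coding start site, on chromosome 11, and went from 92.56 and 72.45 to 5.824 and 7.109 (adjusted p = 0.0979, limma). At these 5 peaks the OFF and ON samples of the liver did not overlap. They were picked by the call in this same comparison, so this adds no support to it. Without Liv_OFF replicate 2 there were 2 higher and 5 lower, the only one of these fits with a liver-open peak called higher. The count of 6 became 0 without Panc_OFF replicate 1, 2 or 3 or Lung_ON replicate 2, and 2 without Panc_ON replicate 1 or 2 or Lung_ON replicate 3. It was 3 without Lung_OFF replicate 3 or Lung_ON replicate 1, 11 without Panc_ON replicate 3, and 22 and 21 without Lung_OFF replicates 1 and 2. Of all nuclear peaks 121 were called lower with all samples, and 45 to 51 in the fits that gave 0. Without Panc_ON replicate 3 and Lung_OFF replicates 1 and 2, 234, 452 and 316 of all peaks were called lower.

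No positive change passed in the liver with all samples. The peak near Mndal, an interferon-inducible gene, read 54.3 and 114.2 (Liv_OFF) and 153.7 and 246.8 (Liv_ON), a log2 fold change of 1.29 ± 0.41 (SE, adjusted p = 0.206, limma). Averaged over the organs it was called higher, with a change of 0.83 (adjusted p = 0.0319, limma).

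In the pancreas, where these peaks were low, restoration lowered part of them. There 430 (5.11%) were called lower and 16 (0.19%) higher, with 3.06% and 0.364% of all nuclear peaks called lower and higher. The median log2 fold change was -0.16 at liver-open peaks and 0.04 at all peaks, and at liver-open peaks it was -0.02 without Panc_ON replicate 3, -0.09 without Panc_ON replicate 1 and -0.38 without Panc_ON replicate 2. The 430 were more open in the pancreas than liver-open peaks in general, with a median of 104.9 in Panc_OFF and 44.3 in Panc_ON. A negative change was seen in the liver at 409 of them (95.12%, median -0.46), and at 93.8% of all 4177 peaks called lower in the pancreas. Start-site and exonic liver-open peaks were called lower in 7.62% and 7.56% of cases, intronic and intergenic ones in 4.47% and 4.97%, against 2.42%, 5.0%, 3.12% and 2.9% of all peaks in these places.

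The peak 10 kb from Dusp16, a MAP kinase phosphatase (chr6:134802272-134803383), had the smallest p. It read 286.9, 330.5 and 309.3 in Panc_OFF and 83.56, 74.28 and 69.75 in Panc_ON, a log2 fold change of -2.01 ± 0.23 (SE, adjusted p = 0.00853, limma). In the liver it read 1082 and 1013 (OFF) and 674.4 and 530.1 (ON), without a call. Peaks in an exon nearest Akap9 and near Gm5678 fell by 2.36 and 2.16 on the log2 scale (adjusted p = 0.00963 for both, limma). The Mir200b cluster peak fell by 0.89 ± 0.26 (adjusted p = 0.0932, limma), and 4 liver-open peaks nearest Ttll10 were called lower, the most for any gene. Of the 53 peaks of the epithelial list 2 were called lower in the pancreas, near Krt8 (-0.78 ± 0.21, adjusted p = 0.0646, limma) and near Grhl3, against 17 of all 251 peaks of this list.

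In the TGF-beta and SMAD pathway 2 of the 33 liver-open peaks were called lower in the pancreas and none higher. The peak 9 kb from Smad7, the inhibitory Smad, read 58.07, 96.48 and 50.01 in Panc_OFF and 22.22, 35.9 and 28.36 in Panc_ON (log2 fold change -1.18 ± 0.34, adjusted p = 0.086, limma). The peak 40 kb from Bmp2, a BMP ligand, read 77.71, 89.33 and 85.2 (OFF) and 26.67, 42.09 and 40.62 (ON), a change of -1.21 ± 0.32 (adjusted p = 0.0657, limma). The groups did not overlap at either peak, which adds no support because both were picked by this call. On the average over organs 4 of the 33 fell and 1 rose, in an intron of Ltbp1, a latent TGF-beta binding protein (log2 fold change 0.73, adjusted p = 0.0552, limma). Over all 513 peaks of this list more rose than fell on average, with 31 called higher and 18 lower. Of the 3 peaks near Smad4 effectors the one 70 kb from Cdkn1c, a cell cycle inhibitor, fell on average (-1.31, adjusted p = 0.0261, limma). The list as a whole went the other way, with 26 of its 87 peaks called higher and 2 lower on average. In the pancreas 2 of 17 of the lipid and bile acid list fell, in Abcg8 (-1.42 ± 0.28, adjusted p = 0.0213, limma) and Srebf1 (-1.12 ± 0.29, adjusted p = 0.0589, limma), a regulator of lipid synthesis. Of the nuclear receptor list 2 of 37 fell (Rxra and Rorb) and of the intestinal list 1 of 11 (Cdh17). Of the 16 liver-open peaks of KLF factors, the 20 of endoderm factors and the 1 of the EMT list none was called in the pancreas. Over all peaks of the lists the counts called lower were 8 of 211 for KLF factors, 17 of 242 for endoderm factors, 1 of 138 for EMT, 17 of 513 for the TGF-beta pathway, 10 of 177 for lipids and bile acids, 11 of 325 for nuclear receptors and 12 of 97 for intestinal genes.

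The 16 peaks that rose in the pancreas were faint. The intronic peak of Trim29, an epithelial TRIM protein, read 2.562, 2.68 and 5.556 in Panc_OFF and 16.89, 26 and 13.03 in Panc_ON (log2 fold change 2.1 ± 0.52, SE, adjusted p = 0.0501, limma). Panc_ON replicate 2 was the highest pancreas sample at 40.69% of the liver-open peaks, and without it 1 was called higher and 243 lower. The count of 446 calls in all became 26 without Panc_OFF replicate 2, 125 without Panc_OFF replicate 1, 152 without Panc_OFF replicate 3, 128 without Panc_ON replicate 1, 289 without Panc_ON replicate 3, and 798 and 701 without Lung_OFF replicates 1 and 2. Without these 2 lung samples in turn, 6651 and 5568 of all nuclear peaks were called lower, against 4177 with all samples. Called lower were 26 liver-open peaks without Panc_OFF replicate 2 and 262 without Panc_ON replicate 3. Of all 136630 nuclear peaks these fits called 443 and 4471 lower. The share called lower was then no higher at liver-open peaks than at all peaks. It stayed higher without any other pancreas sample. The higher share with all samples thus depended on Panc_OFF replicate 2 and on Panc_ON replicate 3.

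**Figure D5:**
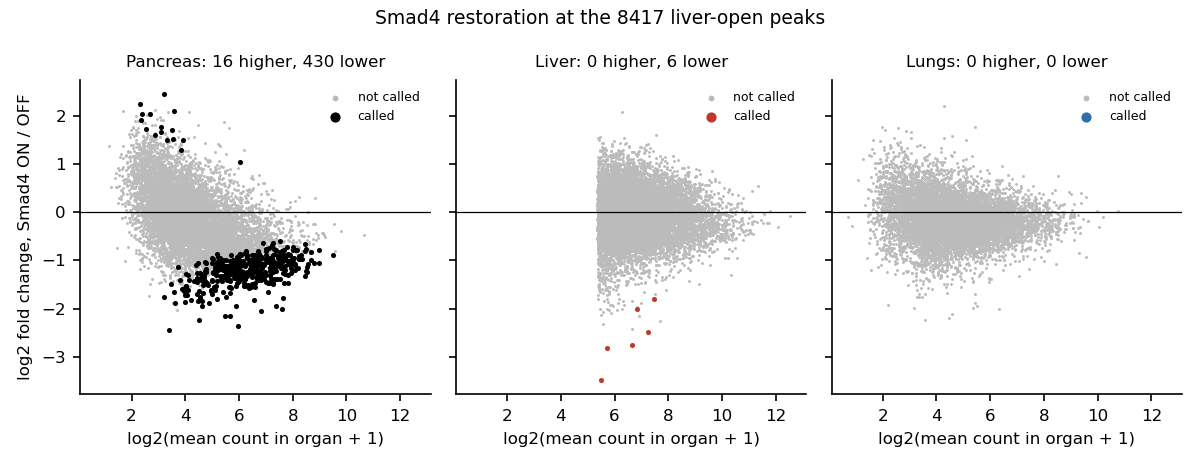
Log2 fold change on Smad4 restoration (ON over OFF) against log2(mean normalized count + 1) in the same organ, for each of the 8417 liver-open peaks in the pancreas, the liver and the lungs, with called peaks in black (pancreas) or red (liver) and all others in grey. In the pancreas 430 called peaks lie below 0 and 16 above, in the liver 6 lie below 0, and in the lungs none was called.

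In the lungs no liver-open peak was called in either direction, and 0.00146% and 0.0022% of all peaks were called higher and lower. At an unadjusted p under 0.05 there were 478 (5.68%, against 7.11% of all peaks), edgeR called none and DESeq2 called 3 higher and 30 lower. Over all 136630 nuclear peaks DESeq2 called 452 higher and 545 lower in the lungs. The limma count of liver-open peaks was 2 without Lung_OFF replicate 1 and 1 without Lung_OFF replicate 3. The median log2 fold change was -0.16 and rested on single samples, as it was 0.06 without Lung_OFF replicate 2 and -0.33 without Lung_OFF replicate 1. With a block for the replicate numbers of the lung samples, 1 was called lower in the lungs, 18 lower in the liver, and 44 higher and 758 lower in the pancreas. Of all peaks this fit called 28 lower and 13 higher in the lungs and 374 lower and 1631 higher in the liver. In the pancreas it called 6666 lower and 2222 higher.

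Averaged over the organs, 678 liver-open peaks (8.06%) were called lower and 50 (0.594%) higher, where 3.0% and 3.61% of all nuclear peaks were. The peak near Dusp16 again had the smallest p, with a log2 fold change of -1.28 ± 0.14 (SE, adjusted p = 0.000726, limma), followed by an exonic peak nearest Gm21987 and an intronic peak of Trpm1 (changes of -1.25 and -1.31, adjusted p = 0.00283 and 0.00302, limma). By ratio, 601 (11.02%) of the peaks below 5 were lowered on average, 76 (3.66%) of those between 5 and 10, and 1 (0.11%) of those at 10 or more. Called higher were 27, 14 and 9, and the median change was -0.26, 0.04 and 0.33. In the last class Liv_OFF replicate 1 was the lowest liver sample at 97.51% of peaks, and the median lung and pancreas means were 6.3 and 6.8. The part of this replicate and of the low counts in the order was not tested. The total of 728 became 422 without Panc_OFF replicate 2, 373 without Lung_OFF replicate 2 and 1361 without Lung_OFF replicate 1. Of all nuclear peaks these fits called 2864, 2535 and 6664 lower and 3417, 2778 and 9619 higher. With all samples 4105 were called lower and 4938 higher. At liver-open peaks the median change was -0.19 without Liv_OFF replicate 1 and -0.06 without Liv_ON replicate 1, fits that leave 1 sample in a group.

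The effect of restoration was not shown to differ between the liver and the other organs at any liver-open peak. By limma no liver-open peak was called for the effect in the liver minus that in the lungs, nor for the liver minus the pancreas, and 0.0% of all nuclear peaks were called in either. At an unadjusted p under 0.05 by limma there were 93 and 204 liver-open peaks, against 7171 and 5403 of all nuclear peaks. No liver-open peak was called by edgeR or DESeq2 either. Over all nuclear peaks edgeR called none. DESeq2 called 45 higher and 3 lower for the liver minus the lungs, and 22 higher and 3 lower for the liver minus the pancreas. The calls in the pancreas and their near absence in the liver are therefore not a tested difference.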

How the data were processed

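Bulk ATAC-seq of sorted mKate2-positive tumor cells was analyzed in 16 samples, grouped by their titles. The table's columns give only doxycycline, and those with the drug on were taken as Smad4 off, as the treatment implies. The files hold no independent check of this, and an exchange would turn the sign of every restoration result. Lung columns of both states name a day that differs from the protocol by 1.

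The deposited values are a signal, in normalized counts per peak. Per the methods, the authors used trimGalore, cutadapt and Bowtie2 (mm10) for trimming and alignment, called peaks by MACS2, removed blacklisted regions, merged nearby peaks into a single atlas for all samples, counted with featureCounts and divided by DESeq2 size factors. A transposase shift and removal of PCR duplicates are not given in the sources used here. All values were whole multiples of 1 read within 0.01, so reads were recovered. Depth counts only reads in nuclear peaks. Nothing says which samples came from separate cell lines, so p-values measure the spread between these samples. The mitochondrial row was left out.

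Genes came from GENCODE vM21 and sequence from GRCm38. Each peak took the protein-coding gene with the nearest start site within 100 kb of its edge. limma 3.58.1 (R 4.3.3, trend and robust) was fitted on log2(normalized count + 1) with 6 group means and Benjamini-Hochberg adjustment over all 136630 nuclear peaks. This scale understates changes of low peaks. The thresholds for a call, 0.58 on the log2 scale and an adjusted p of 0.1, were those of the study. edgeR 4.0.16 and DESeq2 1.42.0 were run on recovered reads. Scripts were tested on simulated data. Named peaks were those of highest liver level, highest ratio and highest level at start sites, the strongest peak of the genes with most peaks and of each listed gene, those of smallest p in each direction, and those at the limits of the rule. The liver-open peaks and the gene lists were chosen with earlier results of these data known, so the lists support no direction. Other genes were named after their values were seen. Some genes, named peaks and an allele of the cells are not reported here.

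Whether samples of the same number deviated together was checked by the correlation of their deviations from the group means, which was 0.491, 0.124 and 0.214 in the lungs, -0.33, 0.027 and -0.33 in the pancreas and 0.083 in the liver. The main fits treated no samples as pairs. A block for the lung numbers alone was fitted beside them, which rests on this correlation and not on the labels. A block for the numbers of every organ was fitted as well.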

Additional observations from a re-analysis of the deposited data

Results flagged for a closer look

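The mitochondrial row of the table was used in no comparison and held a signal in every sample. Its largest share of a sample's reads in the table was 3.557%, in a Liv_OFF sample. The shares were 2.554% to 3.557% in the liver, 1.797% to 2.595% in the pancreas and 1.433% to 2.173% in the lungs. They move with the organ of the liver-open peaks, and their part in the results was not tested. No test for outliers was made in groups of 2 or 3 samples, but replicate pairs were compared with sampling noise by chi-square per degree of freedom. In Panc_ON it was 20.91 and 14.25 for replicate 3 with 1 and 2, and 3.7 for 1 with 2. In Lung_OFF it was 18.66 and 16.87 for replicate 1 with 2 and 3, and 8.2 for 2 with 3. The other groups had 4.65 to 7.09.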

How the results depend on the processing

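The number of liver-open peaks was 5362 with a liver mean of at least 80, 15500 with a ratio of at least 2 and 4995 with a ratio of at least 4, and it ranged from 7817 to 9815 when a replicate was left out. Their share at start sites was 9.67% within 2500 bp, 8.64% with start sites of all gene types and 4.44% from the peak centre, where all peaks had 14.2%, 14.64% and 9.76%. The last 2 settings were chosen after seeing the data. The 6 calls in the liver became 0 at thresholds of 1 and 0.05, 15 with a pseudocount of 10, 2 with quantile normalization, 2 with a GC correction, 13 with only the groups compared, 2 by edgeR and 42 by DESeq2. The 446 in the pancreas became 170 at the stricter thresholds, 758 with quantile normalization and 839 by DESeq2. The lungs had 33 by DESeq2, and the 728 averaged over organs became 76 at the stricter thresholds. With a replicate block in every organ the liver had 3 calls, and 0 with the block and a GC correction. With a replicate block in the lungs only there were 18 in the liver, 802 in the pancreas and 1 in the lungs. The replicate block moved no other of these counts by over 1.5 times. For the organ differences no paired analysis was possible because they compare organs within 1 state. Leaving out a replicate gave 0 to 22 calls in the liver, 26 to 798 in the pancreas, 0 to 2 in the lungs and 218 to 1361 on average. The organ difference in samples outside the choice ranged from 4733 to 7976 peaks in ON and from 6428 to 7847 in OFF. The cause of these differences was not tested. The median restoration effect at liver-open peaks turned its sign in the liver without Liv_OFF replicate 2 (0.04) or Liv_ON replicate 1 (0.13) and in the lungs without Lung_OFF replicate 2 (0.06).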
